A study of Homo sapiens with 38 samples.

Results

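The human genome holds many copies of the gene for U6 small nuclear RNA, and this account follows the copies that took counts in small RNA libraries of material released by DiFi cells, a human colorectal cancer line. The copies were chosen by a measured value: rows of the count table in the snRNA class whose first symbol starts with RNU6- or is exactly U6, with counts over the 38 libraries that sum to at least 200. The rule found 76 rows of 848 U6 rows, among 1312 snRNA rows and 22549 features in all. They stand for 81 loci, since 5 rows hold 2 loci each. Just inside the threshold lay RNU6-49P with 203.9 counts, RNU6-428P with 200.6 and RNU6-888P with 200.2, and just outside it lay RNU6-929P with 193.7. Without the libraries of 1 group or another 26 rows would fall below the threshold, 22 of them without the FPLC exomeres described below. The 76 rows hold 91.3% of all U6 counts, 88209 counts in sum, which is 0.0452% of the counts of all features.

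U6 is the snRNA at the catalytic centre of the spliceosome, where its ACAGAGA box pairs with the 5′ splice site of a pre-mRNA after U6 has been unwound from its partner U4. It is transcribed by RNA polymerase III from a promoter that lies upstream of the gene, and it acts in the nucleus. Most genomic copies are pseudogenes that arose from copies of the RNA, and U6 is widely used as a reference RNA in small RNA assays.

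All libraries came from DiFi medium and from RNA treated with AlkB enzymes, which remove base methylations that block reverse transcription, before ligation-based small RNA libraries were made and size-selected. In flat culture (2D), cells were kept serum-free for 48 h, and 3 pools of medium gave pellets of small extracellular vesicles (sEV), of exomeres and of supermeres by successive ultracentrifugation (UC), at 167000 g for 4 h, at 167000 g for 16 h and at 367000 g for 16 h, with 3 libraries each. Exomeres and supermeres are small particles without a membrane. In a hollow-fibre bioreactor (3D), 4 pools of about 400 mL were split into aliquots for the same UC pellets (3 libraries each), for exomeres and supermeres by size-exclusion chromatography (FPLC, 4 libraries each) and for a cushion density gradient with pools of fractions 6_7, 9_10 and 12 (4 libraries each). Light and heavy vesicles and a non-vesicular part are listed for the gradient, but no label says which pool holds which. Culture vessel, serum-free step and harvest differ together between 2D and 3D and cannot be told apart, and the replicate letters A to D are not tied to pools. Each p-value therefore reflects the spread among the libraries, part of which may be technical.

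Total counts ran from 81079 in gradient 9_10 library C to 16991360 in 2D sEV library B. The 3D supermere library A held 46 counts and was left out, so that group has n = 2. The summed CPM (counts per 1000000 counts of a library) of the 5 intestinal epithelial miRNAs used as markers ran from 42.3 to 137154 over the other 37 libraries and that of the 5 blood and liver miRNAs from 0 to 59.6. In these bulk samples, fewer particles and less RNA per particle cannot be told apart.

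The copies were compared base by base with RNU6-1, a functional U6 gene, from GENCODE v29 transcripts on GRCh38. RNU6-32P lies in an intron of RFC1 on the same strand, and RNU6-25P, RNU6-42P, RNU6-657P, RNU6-1277P and RNU6-1318P lie in introns of XXYLT1, PAK2, PLCE1, TTC6 and SLC35A3 on the other strand. A row named only U6 lies on chromosome 12 in an intron of a lincRNA. RNU6-32P and RNU6-25P each differ from RNU6-1 by a single base, C66T and C79T, counted from 1 at the first base of RNU6-1. RNU6-42P carries G12A, T32A and G33C. The chromosome 12 row is an exact copy of bases 1 to 70 that ends there. The other 3 rows named only U6 are shorter than RNU6-1 as well and held 358.9, 254.1 and 212.9 counts. RNU6-657P keeps its longest exact stretch, 34 bases, from position 45 to 78. RNU6-1277P has 18 substitutions and no exact stretch longer than 12 bases. The ACAGAGA box, at positions 41 to 47 and searched on the transcript strand, was found in 68 of the 76 rows (89.5%) and in 439 of the 772 other U6 rows (56.9%).

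The rows share reads, and many cannot be separated. The 7 loci of 6 rows (RNU6-1 with RNU6-5P, RNU6-2, RNU6-3P, RNU6-4P, RNU6-6P and RNU6-9) are identical over all 107 bases. Together with rows such as RNU6-7 with RNU6-8 (both functional genes), RNU6-11P, RNU6-36P and RNU6-33P, 12 rows with 15 loci lay within 10% of the same count per locus, from 2921 for RNU6-16P to 3095 for RNU6-9. These 12 rows held 51.6% of the counts of the 76. Identity to RNU6-1 over its 107 bases had a median of 92.5% in the 76 rows and 82.2% in the 772 others, and the longest exact stretch a median of 43 against 20 bases. Of the 81 loci, 35 lie in no other gene, 22 lie in an intron on the strand of the host gene, 22 in an intron on the other strand only, and 2 overlap an exon. Across 37 libraries, 71 of the 76 rows had a Pearson r above 0.5 between their CPM and that of RNU6-1. This is a description of rows that share reads and library depth. Counts of rows called by a test are therefore not counts of separate genes.

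Exact matches to RNU6-1 were most frequent in the middle of the molecule. A stretch of 30 bases identical to RNU6-1 from position 26 to 55 was present in 43 of the 76 rows (56.6%) and in 1 of the 772 others (0.13%). The stretch from 66 to 95 was the rarest in the 76 rows, in 12 (15.8%). Position 66 carried a substitution in 18 of the 76 rows (23.7%) and in 352 of the others (45.6%). Position 79 did so in 25 rows (32.9%) and in 400 (51.8%). Because the rows were chosen for their counts, these shares describe the choice and were not tested.

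**Figure D1:**
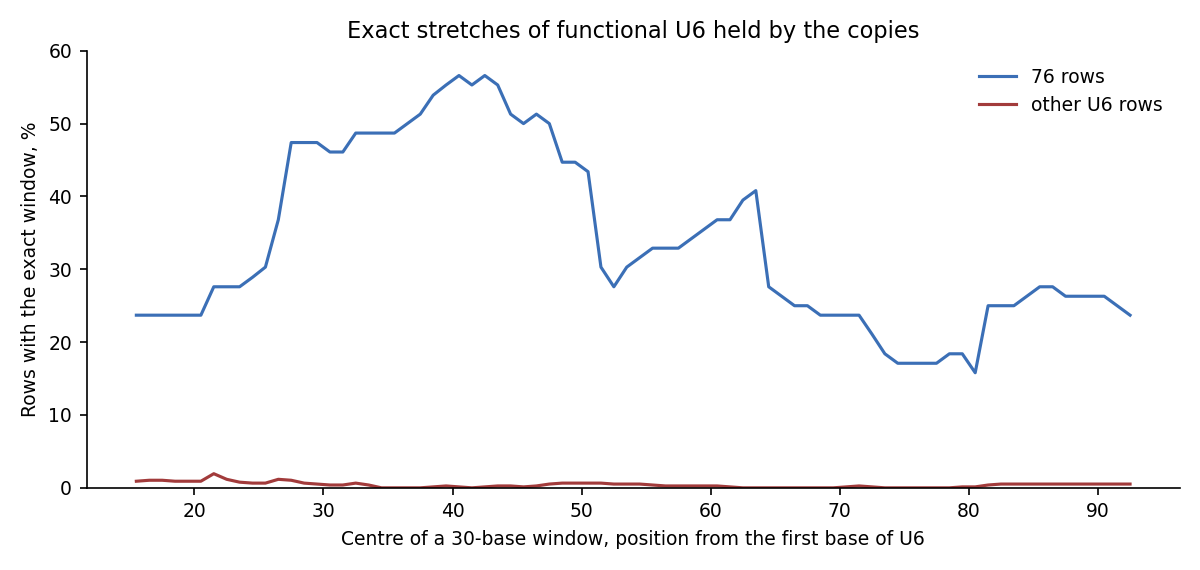
Share of rows, in percent, that hold an exact copy of each 30-base window of RNU6-1, against the centre of the window in bases from the first base of U6, for the 76 rows with counts (blue) and the 772 other U6 rows (red). The blue line peaks near the middle of the molecule, at 56.6%, and the red line stays near 0.

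Fractions differed widely in their level of U6, with the sEV pellets, 2D exomeres and FPLC exomeres high and the supermeres low. In 2D sEV the summed CPM of the 76 rows was 429, 506 and 707 in libraries A, B and C. In 2D exomeres it was 815, 556 and 424, on both sides of the sEV. In 2D supermeres it was 99.4, 106 and 42.2, below every sEV and exomere library. The 3D sEV libraries had 1690, 1442 and 1058, all above the 2D sEV libraries. In 3D UC exomeres the values were 82.1, 60.1 and 171, and in the 2 usable 3D UC supermere libraries 24.6 and 26.6, so that here sEV stood above exomeres and exomeres above supermeres with no overlap.

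The 4 FPLC exomere libraries had 2153, 1234, 1282 and 2522 CPM of U6, above every 3D UC exomere library and overlapping the 3D sEV. The FPLC supermere libraries had 7.76, 34.9, 45.7 and 13.4 CPM, on both sides of the 2 UC supermere values. In the gradient, pool 6_7 had 126, 40.8, 171 and 102 CPM, pool 12 had 488, 678, 181 and 103, and pool 9_10 had 188, 1006, 5974 and 570. In pool 9_10 most of the U6 counts of 3 libraries lay in a single divergent copy, RNU6-1277P: without it and the copies RNU6-1318P and RNU6-204P the mean was 85.1 ± 27.4 in place of 1935 ± 2714 CPM (SD, n = 4), and that of pool 12 was 209 ± 157 in place of 363 ± 268.

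Without those 3 copies the group means ran from 1798 CPM in FPLC exomeres and 1397 in 3D sEV, through 598 in 2D exomeres, 547 in 2D sEV, 209 in gradient 12, 109 in gradient 6_7, 105 in 3D UC exomeres, 85.1 in gradient 9_10 and 82.4 in 2D supermeres, to 25.6 in 3D UC supermeres and 25.4 in FPLC supermeres. Ranges overlapped between FPLC exomeres and 3D sEV, between 2D exomeres and 2D sEV, among the 5 groups from gradient 12 to 2D supermeres, and between both 3D supermere groups. The highest FPLC supermere library also reached the lowest libraries of 2D supermeres and of gradient 6_7 and 9_10.

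**Figure D2:**
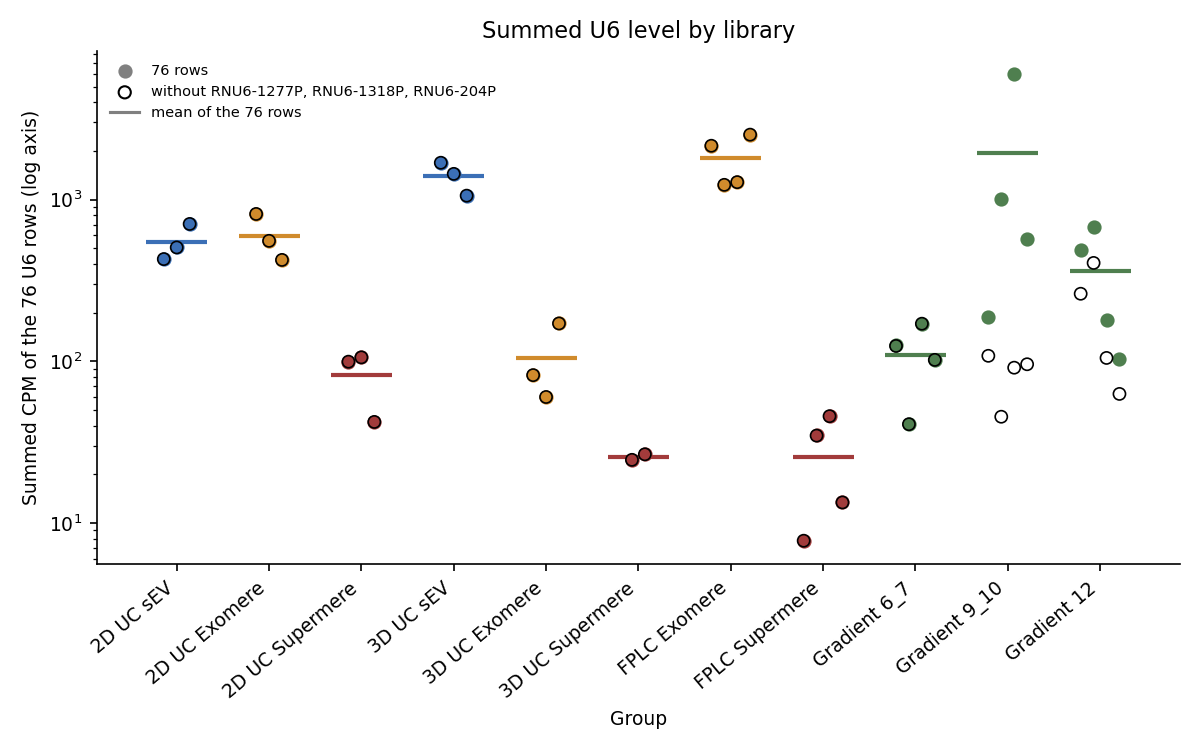
Summed U6 level of each library, in CPM on a log axis, by group (filled points, with the group mean as a line), and the same without RNU6-1277P, RNU6-1318P and RNU6-204P (open circles). Filled and open points part only in gradient pools 9_10 and 12, and the UC and FPLC supermere groups lie lowest.

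As a share of snRNA counts the order was different, since other snRNA rows took very different parts of the libraries. U6 was 4.60%, 4.17% and 4.15% of snRNA counts in 2D sEV, but 0.559%, 0.528% and 0.172% in 2D exomeres, although the CPM of U6 overlapped between them. All snRNA rows together were 1.28% ± 0.389 of counts in 2D sEV and 16.6% ± 7.27 in 2D exomeres (SD, n = 3). The mean share was lowest in 2D supermeres, at 0.0389% ± 0.0268, where snRNA made up 30.0% ± 19.1 of counts. Library C of that group had 0.00811% and 52.0%. The 2D supermere shares overlapped those of 3D UC supermeres, and the lowest single library was FPLC supermere library D, at 0.00341%. The mean share was 1.61% ± 0.334 in 3D sEV, 0.113% ± 0.0134 in 3D UC exomeres (n = 3 each) and 0.0525% ± 0.0409 in 3D UC supermeres (n = 2). FPLC exomeres had 2.39% ± 0.464 and FPLC supermeres 0.192% ± 0.204. The gradient pools had 1.84% ± 1.19 (6_7), 4.65% ± 4.89 (9_10) and 0.556% ± 0.435 (12) (SD, n = 4 each). In pool 9_10 RNU6-1277P alone made up 35.8%, 95.5%, 98.5% and 81.3% of the U6 counts of libraries A to D. The mean share of that pool therefore rests largely on this copy, which met the threshold only through the same pool.

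Which copies took the counts also differed between fractions, and the difference ran with the places at which the copies depart from RNU6-1. RNU6-32P, identical to RNU6-1 except at position 66, took 14.8% of the count per locus of the identical loci over all libraries. RNU6-33P and RNU6-36P, which differ at position 12 (G12A) and position 10 (T10C), each took within 10% of the count of the identical loci. The following percentages use the 31 libraries in which the identical loci held at least 10 counts in sum, with 7 libraries left out. The copies were picked after their values had been seen, so the percentages are given without a test. An identical locus held 182 to 360 counts in 2D sEV libraries, but 9.80 to 10.9 in 2D supermeres and 2.79 to 8.70 in gradient 12. In gradient 6_7 it held 2.70 to 14.8, in FPLC supermeres 2.81 to 15.9 and in 3D UC exomere library A 6.30. Percentages in those groups and in that library therefore rest on few counts.

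In 2D sEV the count of RNU6-32P was 12.0% ± 1.50 of that of an identical locus, and in 2D exomeres 11.8% ± 0.989 (SD, n = 3 each). In 2D supermeres it was 74.7% ± 9.05, with a lowest library at 67.1%, far above every sEV and 2D exomere library. The highest 3D UC exomere library, at 68.3%, overlapped these supermeres. The 3D sEV had 12.5% ± 0.797 and the 3D UC exomeres 54.8% ± 16.3 (n = 3 each), again with no overlap. FPLC exomeres had 13.6% ± 5.96 (n = 4), with a highest library at 19.0%, below the lowest 3D UC exomere library at 36.7%. FPLC supermeres had 29.9% ± 11.6 (n = 3), gradient 6_7 31.9% ± 9.08 and gradient 12 73.8% ± 13.7 (n = 4 each). RNU6-17P with RNU6-18P, 2 further copies that differ only at this position (C66A), had nearly the same values, from 12.1% in 2D exomeres to 74.7% in 2D supermeres.

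The chromosome 12 row, which holds bases 1 to 70 and nothing beyond, followed RNU6-32P. Its count was 8.51% ± 1.07 of an identical locus in 2D sEV, 11.8% ± 1.02 in 2D exomeres and 78.3% ± 2.96 in 2D supermeres (n = 3 each), and 82.1% ± 14.2 in gradient 12 (n = 4). RNU6-953P, whose longest exact stretch is the 30 bases from 26 to 55, exceeded an identical locus in these groups, with 206% ± 35.2 in 2D supermeres (n = 3) and 248% ± 124 in gradient 12 (n = 4), against 1.89% ± 0.807 in 2D sEV (n = 3). RNU6-42P, which departs from RNU6-1 at positions 12, 32 and 33 and matches it from 34 to the end, ran the other way. It had 74.6% ± 3.96 in 2D sEV, 87.5% ± 0.945 in 2D exomeres and 25.8% ± 8.80 in 2D supermeres (n = 3 each), and 26.7% ± 20.8 in gradient 12 (n = 4).

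RNU6-25P, which differs only at position 79, was lower in sEV and 2D exomeres than in the other groups. It had 49.1% ± 3.41 in 2D sEV, 37.2% ± 4.77 in 2D exomeres and 55.0% ± 6.34 in 3D sEV (n = 3 each). It had 88.8% ± 6.93 in 2D supermeres, 88.9% ± 5.58 in 3D UC exomeres (n = 3 each) and 84.6% ± 12.0 in FPLC exomeres (n = 4). FPLC exomeres and 3D sEV overlapped in RNU6-32P but not in RNU6-25P, with a lowest FPLC library at 67.5% and a highest 3D sEV library at 62.2%. RNU6-657P, whose exact stretch ends at position 78, was highest in the FPLC groups, at 62.0% ± 10.5 in FPLC exomeres (n = 4) and 47.7% ± 15.7 in FPLC supermeres (n = 3), against 25.6% ± 3.79 in 3D sEV (n = 3).

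**Figure D3:**
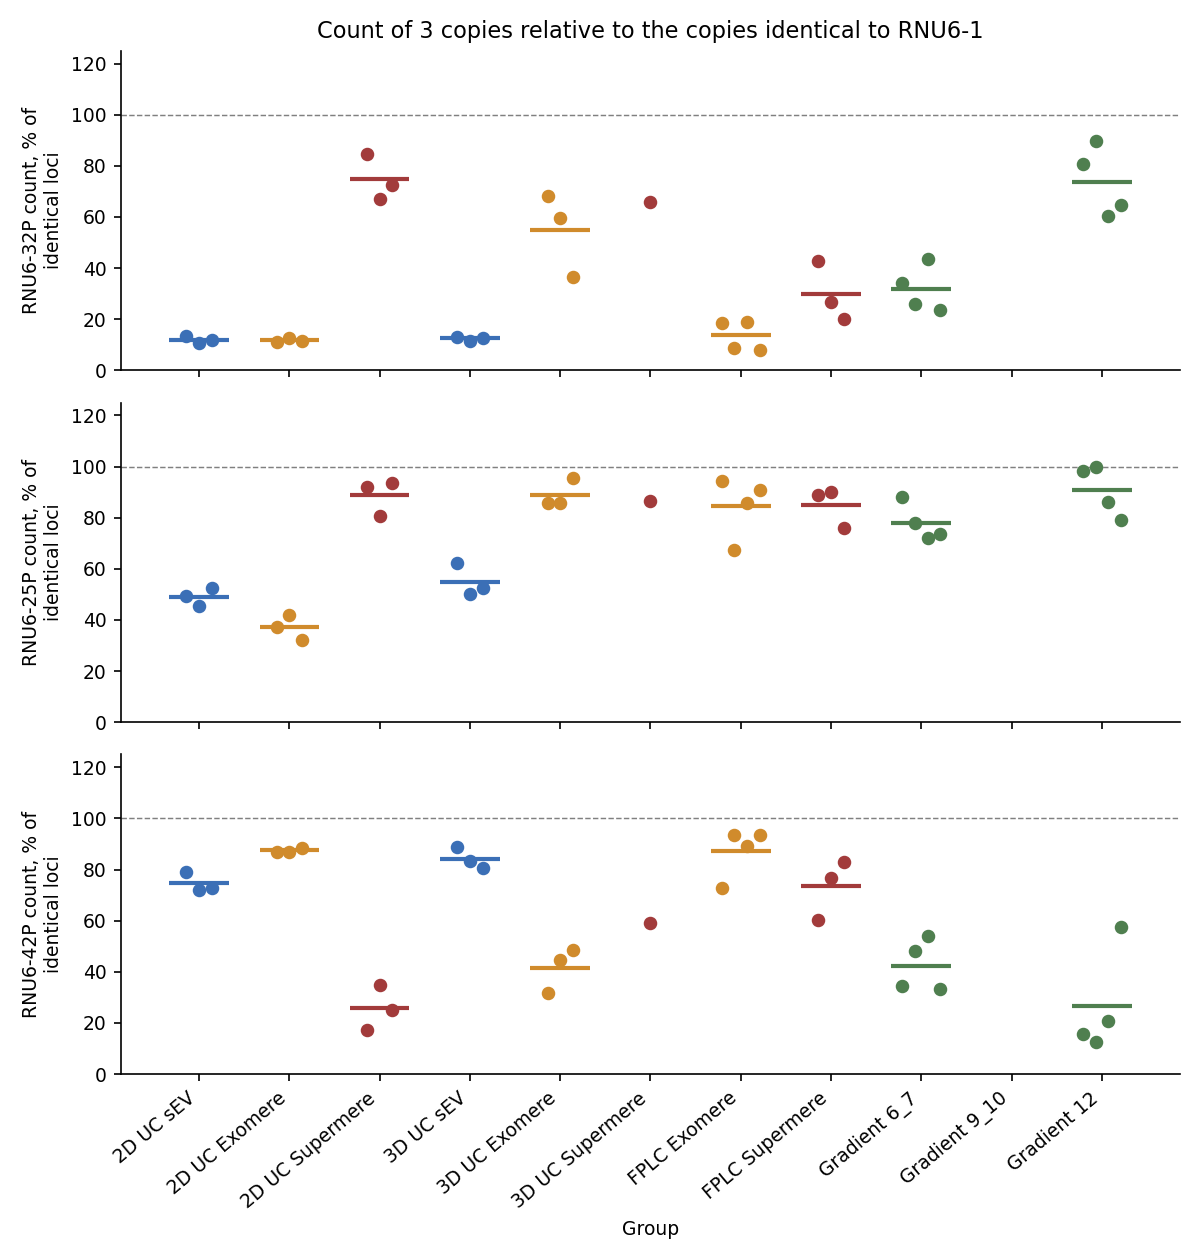
Count of RNU6-32P, RNU6-25P and RNU6-42P in each library as a percentage of the count per locus of the copies identical to RNU6-1 (dashed line, 100%), by group, with the group mean as a line where there are at least 2 libraries. RNU6-32P is low in sEV, 2D exomere and FPLC exomere libraries and high in 2D supermere and gradient 12 libraries, and RNU6-42P runs the other way.

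All rows were then sorted by the place of their longest exact stretch of RNU6-1, a split made after the values were seen: 34 rows whose stretch ends by position 66 (front-run rows), 21 whose stretch starts at or after position 34 and passes 66 (back-run rows) and 18 whose stretch starts before position 34 and passes 66 (long-run rows), leaving out RNU6-1277P, RNU6-1318P and RNU6-204P. These percentages depend on the boundary: with it at position 60 the group mean was 7.33% in place of 26.2% in 2D sEV, 69.98% in place of 85.6% in 2D supermeres, 36.0% in place of 67.3% in gradient 6_7 and 19.8% in place of 58.4% in FPLC supermeres. With the boundary at position 66, front-run rows took 28.2%, 23.9% and 26.3% of front-run plus back-run counts in 2D sEV libraries A, B and C. In 2D exomeres they took 25.4%, 28.9% and 25.9%, and in 2D supermeres 88.1%, 84.6% and 84.1%. The 3D sEV libraries had 34.4%, 28.4% and 28.8%, the 3D UC exomeres 82.4%, 75.0% and 75.6%, and the 3D UC supermeres 67.1% and 76.4%.

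FPLC exomeres, at 33.5%, 21.3%, 42.2% and 20.3%, overlapped the sEV and lay below every 3D UC exomere library. FPLC supermeres were spread from 37.3% to 92.7%, the highest value resting on 12.3 counts in library D. Gradient 6_7 ran from 59.4% to 72.5% and gradient 12 from 85.7% to 93.4%. In gradient 9_10 only library A had the required 10 counts, with 71.1%.

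**Figure D4:**
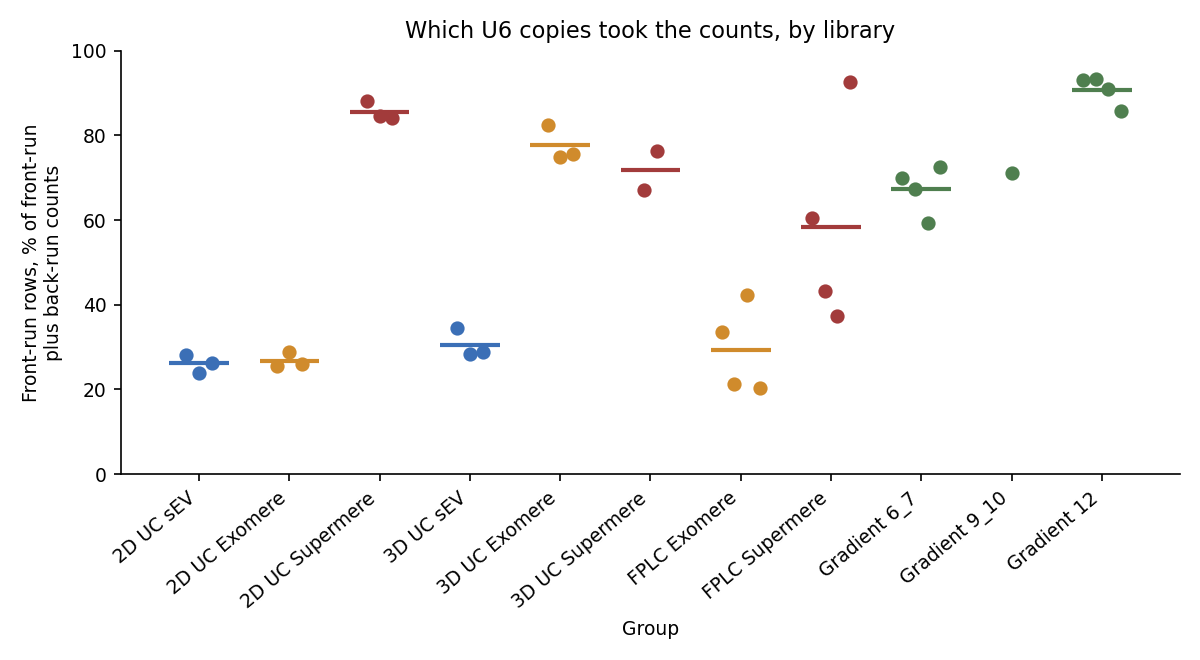
Counts of the 34 front-run rows as a percentage of front-run plus back-run counts in each library with at least 10 such counts, by group, with the group mean as a line where there are at least 2 libraries. The sEV, 2D exomere and FPLC exomere libraries lie at or below 42.2%, and the 2D supermere and gradient 12 libraries lie at or above 84.1%.

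The table holds no read positions, and how reads that match several copies were assigned is not given in the sources used here, so the part of U6 that the reads cover was not measured.

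Differences between groups were tested in 1 edgeR quasi-likelihood fit over 37 libraries and 8979 features, with Benjamini-Hochberg adjustment over all features and a threshold of 0.05, and all 76 rows passed the filter on low counts. Fitted log2 fold changes rest on TMM scaling, whose factors ran from 0.067 to 8.99, and can depart from ratios of CPM. For this reason the median over all features is given beside each. With RLE factors, another scaling, 4, 0, 0 and 3 rows were called lower in place of the 30, 27, 29 and 26 of 2D supermeres, 3D exomeres, 3D supermeres and FPLC supermeres described next.

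In 2D culture supermeres fell below sEV: 30 of the 76 rows were lower and 0 higher, against 6.43% of all features called lower. RNU6-1 had 33.7, 42.0 and 56.7 CPM in sEV and 3.95, 4.64 and 1.85 in supermeres, a log2 fold change of -4.43 ± 1.14 (SE, edgeR adjusted p = 0.00221). RNU6-28P, a copy with 5 substitutions that matches RNU6-1 from position 39 to 87, fell furthest of the rows with at least 10 CPM in 1 group, from 14.2 ± 3.34 to 0.354 ± 0.250 CPM (log2 fold change -6.15 ± 1.40, edgeR adjusted p = 0.000308). RNU6-98P and RNU6-10P fell by 6.01 and 5.94 on the log2 scale. Of the called rows 16 belonged to the 18 long-run rows and 14 to the 21 back-run rows, and 0 to the 34 front-run rows, whose median log2 fold change was -0.48. Front-run rows also had fewer counts, with a median sum of 295.9 against 973.9 for back-run rows. The median of the 76 rows was -1.84 and that of all features 0.

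The 30 rows became 15 without supermere library A and 12 without library B.

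Of the 7 U4 and U5 genes, whose RNAs form the tri-snRNP with U6, 2 were lower and 0 higher (median log2 fold change -1.56). Their summed CPM overlapped, at 239 to 577 in supermeres and 258 to 518 in sEV. Of 24 tested U1 and U2 genes, whose RNAs recognise the 5′ splice site and the branch site, 9 were higher and 0 lower (median 2.28). Of the 200 tested snRNA rows other than U6, 72 were higher and 4 lower, against 1.39% of all features called higher. Whether these groups differed from the U6 rows was not tested. Among 8 snoRNA genes of ribosomal RNA processing (U3, U8 and U13), 5 were lower, and of the 3 tested transcripts with a promoter like that of U6, 1 was lower.

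Between exomeres and sEV of 2D culture 0 of the 76 rows were called by edgeR, against 6.45% of all features. At an unadjusted edgeR p under 0.05 there were 2 rows, both lower, and DESeq2 called 1. RNU6-1 had 60.4, 39.8 and 32.0 CPM in exomeres, overlapping the sEV values. Supermeres against exomeres gave 0 rows called by edgeR as well, where only 0.0557% of all features were called. At an unadjusted p there were 28 rows, all lower, and DESeq2 called 24. The median log2 fold change was 0.42 over the front-run rows and -4.25 over the back-run rows.

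In 3D culture both particle pellets fell below sEV. For exomeres 27 of the 76 rows were lower and 0 higher, against 6.74% of all features called lower. RNU6-1 had 113, 106 and 78.5 CPM in sEV and 3.73, 3.03 and 10.5 in exomeres (log2 fold change -4.14 ± 1.12, edgeR adjusted p = 0.00629). RNU6-1077P, which matches RNU6-1 from position 44 to 78 and carries 7 substitutions, fell from 27.6, 16.2 and 11.9 to 0.207, 0.306 and 0.230 CPM (log2 fold change -5.79 ± 1.48, edgeR adjusted p = 0.00309). The called rows were 13 of the 18 long-run rows, 14 of the 21 back-run rows and 0 of the 34 front-run rows. Front-run rows had a median log2 fold change of -2.02, so they lay lower as well without passing the threshold. The median of the 76 rows was -2.82 and that of all features -0.16. Of the 27, 1 row met the threshold of 200 counts only through 3D sEV. The 27 became 9 without exomere library A and 10 without library B, and RNU6-1 passed the threshold in neither fit.

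For 3D supermeres 29 rows were lower and 0 higher, against 4.83% of all features called lower. RNU6-1 had 1.11 and 1.38 CPM in the 2 supermere libraries (log2 fold change against sEV -5.74 ± 1.49, edgeR adjusted p = 0.00475). RNU6-47P, RNU6-27P and RNU6-378P rounded to 0 counts in both supermere libraries and were at least 50.1-fold, 40.2-fold and 39.4-fold lower than in sEV, taking 3 counts over the group as the floor. The called rows were again 16 long-run, 13 back-run and 0 front-run, although the median log2 fold change of the front-run rows was -3.48. The median over all features was -3.22 here and -5.04 over the 76 rows. With only 2 supermere libraries the count depended on both: without either of them 0 rows were called.

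Of the 7 U4 and U5 genes 3 were lower in exomeres and 3 in supermeres, against 1 and 0 of the 24 U1 and U2 genes. The summed CPM of U4 and U5 was 1555 to 6163 in 3D sEV and 281 to 499 in exomeres. In supermeres it was 1845 to 3823, overlapping the sEV, unlike the summed U6. Of the 8 snoRNAs of ribosomal RNA processing, 6 were lower in exomeres and 7 in supermeres. Whether the drop differed between cultures was tested directly. For exomeres against sEV, 3D minus 2D, 0 of the 76 rows were called (1.12% of all features), with 15 rows at an unadjusted edgeR p under 0.05, all lower. For supermeres against sEV the difference gave 0 rows (1.14% of all features) and 4 at an unadjusted p, all lower. DESeq2 was not run for these differences.

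Between cultures, 0 of the 76 rows were called by edgeR in sEV (1.96% of all features), in exomeres (5.38%) or in supermeres (2.03%). In sEV 42 rows had an unadjusted edgeR p under 0.05, all higher in 3D, and DESeq2 called 56. RNU6-1 was higher in 3D in 3 of 3 sEV libraries, with no overlap, and its log2 fold change was 2.08 ± 1.02 (edgeR adjusted p = 0.439). Scaled to snRNA counts, that change was -1.57. In exomeres and supermeres 0 rows had an unadjusted p under 0.05, and DESeq2 called 7 and 0. In exomeres the fitted change of RNU6-1 departed from its CPM. RNU6-1 had 44.1 CPM in 2D and 5.77 in 3D, with no overlap between libraries. Its fitted log2 fold change was -0.47 ± 0.992 (edgeR adjusted p = 0.790), where the median of all features was -1.77. With library totals as the scaling some of the 76 rows were called, as given further below, and the cause was not tested. Of the 7 U4 and U5 genes, 4 were higher in 3D sEV and 0 lower.

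FPLC exomeres exceeded UC exomeres of the same culture. Of the 76 rows 15 were higher and 0 lower, against 3.75% of all features called higher. RNU6-1 had 144, 82.5, 75.2 and 166 CPM in FPLC exomeres, all above the highest UC value of 10.5 (log2 fold change 3.22 ± 1.05, edgeR adjusted p = 0.0428). RNU6-1077P rose to 38.6, 22.7, 28.1 and 65.4 CPM (log2 fold change 5.68 ± 1.45, edgeR adjusted p = 0.00744), and RNU6-657P and RNU6-378P rose by 5.58 and 5.24 on the log2 scale. The called rows were 11 of the 21 back-run rows, 4 of the 18 long-run rows and 0 of the 34 front-run rows. Front-run rows had a median log2 fold change of 1.44. The median of the 76 rows was 1.93 and that of all features 0.51. Without FPLC exomeres 22 of the 76 rows, front-run rows among them, would fall below the threshold on summed counts. The 15 called rows were not among these. The front-run median and that of the 76 rows therefore follow in part from the choice of rows and are a description. None of the 7 U4 and U5 genes was called, while 6 of 8 snoRNAs of ribosomal RNA processing and 2 of 3 tested transcripts with a promoter like that of U6 were higher. The summed intestinal epithelial miRNAs moved the same way, from 1473 to 3331 CPM in UC exomeres to 13895 to 97124 in FPLC exomeres, and their part in the result was not tested. Without a filter on low counts 0 rows were called. The 15 rows became 4 without UC exomere library A and 2 without library B, and RNU6-1 kept its call only when FPLC library A or no library was left out.

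FPLC supermeres fell below FPLC exomeres in 26 of the 76 rows, with 0 higher, against 4.59% of all features called lower. RNU6-1 had 0.440, 1.92, 2.93 and 0.473 CPM in supermeres (log2 fold change -3.38 ± 0.953, edgeR adjusted p = 0.0116), below every exomere library. The called rows were 16 long-run and 10 back-run, while the median log2 fold change of the front-run rows, none of them called, was -2.66. RNU6-164P, RNU6-1077P and RNU6-657P fell by 3.69, 3.68 and 3.68 on the log2 scale. The median of the 76 rows was -2.98 and that of all features -1.61. Here too the front-run median and that of the 76 rows follow in part from the choice of rows. Of the 76 rows, 22 would fall below the threshold on summed counts without FPLC exomeres, and the 26 called rows were not among these. Without a filter on low counts 0 rows were called. Without supermere library D 0 rows were called, 3 without library A or B and 15 without library C. FPLC against UC supermeres gave 0 rows called by edgeR (0.212% of all features), with 6 at an unadjusted edgeR p under 0.05, all higher, and 0 by DESeq2. RNU6-1 was near 1 CPM in both (1.44 ± 1.21, n = 4, and 1.24 ± 0.189, n = 2).

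**Figure D5:**
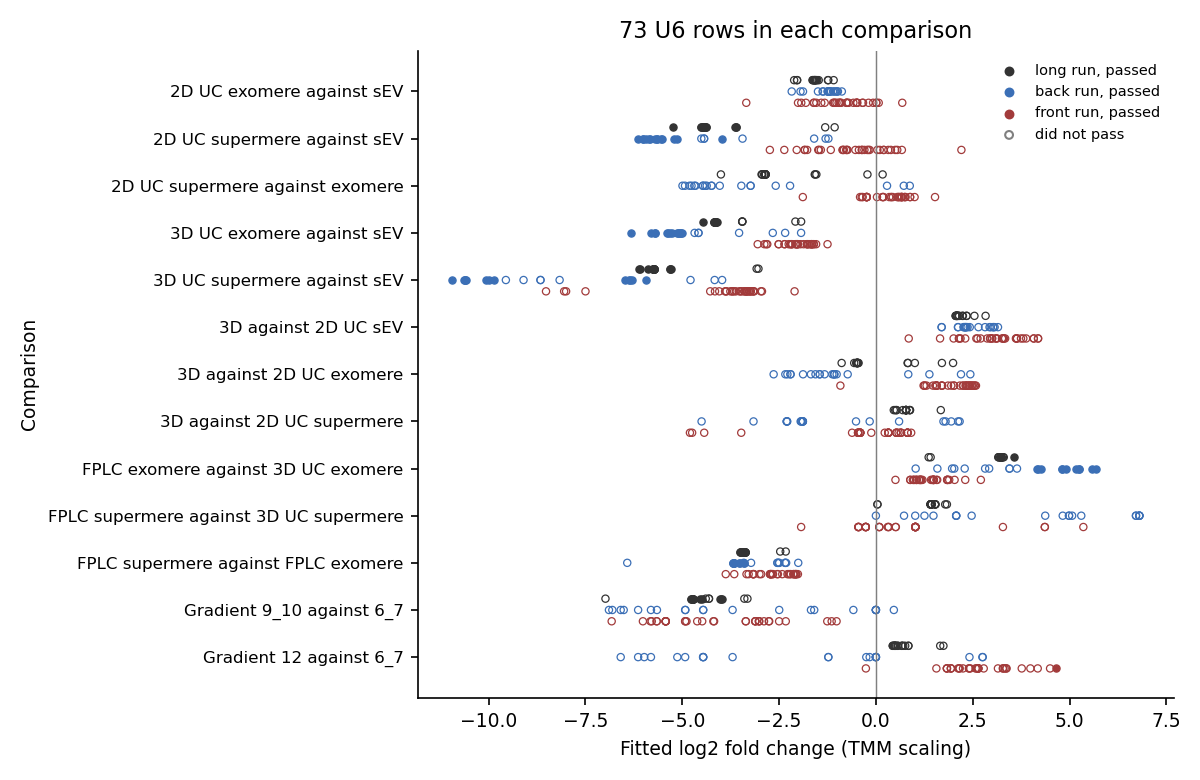
Fitted log2 fold change of 73 U6 rows in each of the 13 comparisons, in 3 lines per comparison for long-run rows (black), back-run rows (blue) and front-run rows (red), filled where the adjusted edgeR p was under 0.05. Filled points are black and blue, except for RNU6-20P in gradient 12.

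The gradient pools brought up divergent copies. RNU6-1277P had 67.3, 961, 5883 and 463 CPM in pool 9_10 and 2.13, 0, 0 and 0 in pool 6_7, that is 33, 108, 477 and 86 counts against 2 counts in all. Library C alone held 62.0% of its counts in the series. It made up 35.8%, 95.5%, 98.5% and 81.3% of the U6 counts of the 9_10 libraries. In pool 12 it had 4.88 to 14.1 CPM, and in the 25 UC and FPLC libraries at most 0.427. This row met the threshold of 200 counts only through pool 9_10, which held 91.5% of its counts, so its high values there follow from the choice and are a description.

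RNU6-1318P and RNU6-204P had most of their counts in pool 12, with 99.3% and 97.7% of them there. RNU6-1318P had 168, 185, 52.0 and 17.2 CPM in pool 12, 0 in all 6_7 libraries and at most 0.0241 in the UC and FPLC libraries. RNU6-204P had 53.9, 82.2, 16.3 and 8.56 CPM in pool 12 and 0 in 6_7. Pool 9_10, whose libraries were much smaller, held 3.41 ± 5.09 CPM of RNU6-1318P and 2.40 ± 4.79 of RNU6-204P (SD, n = 4). These rest on 1.4 and 2 counts of RNU6-1318P in libraries A and D and on 4.7 counts of RNU6-204P in library A. Both met the threshold only through pool 12. RNU6-1277P, RNU6-1318P and RNU6-204P had an r with RNU6-1 across libraries near 0, at -0.136, -0.136 and -0.135. It was drawn from the same counts that made them members, most of them in 1 pool each, and is a description. The exact stretches of these 3 rows, of 12, 26 and 20 bases, are below the median of 43.

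Pool 12 against 6_7 had 4 rows higher and 0 lower, against 2.05% of all features called higher. Of the 4, RNU6-1318P and RNU6-204P were chosen through pool 12 itself, so nothing is read from the count. The others were RNU6-1277P and RNU6-20P. RNU6-20P, a front-run copy, had 19.5, 42.3, 11.9 and 1.31 CPM against 1.17, 0.476, 1.40 and 0.803 (log2 fold change 4.66 ± 1.28, edgeR adjusted p = 0.00592). Both groups overlapped in library D of pool 12, and without library B of pool 12 the call was lost. RNU6-1 had overlapping values, with 7.94 ± 5.18 CPM in pool 12 and 7.82 ± 3.82 in 6_7 (SD, n = 4; log2 fold change 0.53 ± 0.908, edgeR adjusted p = 1). Scaled to snRNA counts its change was -3.38.

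Pool 9_10 against 6_7 had 12 rows lower (4.4% of all features called lower). The 1 row called higher (3.92% of all features) was RNU6-1277P, chosen through pool 9_10 itself, and nothing is read from that call. The 12 are the near-identical rows around RNU6-1, which share their reads. RNU6-1 had 4.69, 2.67, 2.47 and 5.38 CPM in 9_10 and 8.93, 2.85, 12.0 and 7.46 in 6_7, so the groups overlapped. The fitted log2 fold change was -4.02 ± 1.23 (edgeR adjusted p = 0.0224), where the median of all features was 2.71. With library totals in place of TMM it was -1.29, and 0 rows were lower. RNU6-1 also lost its call without 6_7 library C or D and without 9_10 library A, B or C, and leaving out any of these left 0 rows lower. In pool 9_10 these values rest on 81079 to 490374 total counts a library.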

How the data were processed

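Small RNA of material released by DiFi cells was measured in 38 libraries of 11 groups. The authors deposited 1 table of expected counts per feature, which were not scaled to depth, and 6.71% of values are not whole. Per the submitters' processing notes, tools were Bowtie 1.3.1, cutadapt 4.5 and FastQC 0.12.1, with the build GRCh38.p13. The counting tool, annotation and treatment of multi-mapping reads are not given in the sources used here. Copies were compared through GENCODE v29 transcripts, whose sequences are not reported here and in which all 81 loci had the same coordinates as in the table.

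The members and lists were chosen with earlier results of these data known. CPM uses library totals. Expected counts were rounded and fitted with edgeR 4.0.16 in R 4.3.3 (glmQLFit with robust, TMM, filterByExpr with a minimum count of 10, 26 residual degrees of freedom, common biological coefficient of variation 1.2), two-sided, leaving out 1 library with under 10000 counts. The steps were run on simulated counts for the 2D sEV and 2D exomere libraries only. That simulation had less spread than these data and set changes only in well-counted features. It therefore does not measure error or power for the U6 rows. The alternatives were other scalings, no filter, DESeq2 1.42.0, the 2 groups alone, the near-empty library kept, a replicate block, each library left out and other minimum counts. The split by exact stretch, the copies set against identical loci and the 3D minus 2D differences were added after seeing the data. An SE is the log2 fold change divided by the root of F. Named rows were RNU6-1 and other functional genes, rows named only U6, the 6 with the highest mean CPM, and up to 3 called rows per direction with the largest fold change and at least 10 CPM. Floors cover counting error only. Molecular identifiers are not given in the sources used here, so PCR copies of a molecule may enter as separate reads.

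Replicate letters were checked as pairs by correlating deviations from group means: only 2D supermeres against exomeres had all 3 above 0.1 (0.122, 0.109 and 0.413), and there the replicate block also called 0 rows.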

Additional observations from a re-analysis of the deposited data

Results flagged for a closer look

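In gradient 9_10, library C lay apart from the other 3: its summed U6 level was 5974 CPM, against 188 to 1006 in the others. The same library held RNU6-1277P at 5883 CPM, or 477 counts, against 67.3 to 961 CPM. Its gap to the nearest library was 0.859 and 0.846 of the range of the group. Groups of 4 libraries were examined in 53 cases in which some library held at least 10 counts, of which 2 had a library this far from the rest. Chance alone sets about 1 in 20 such groups apart if values are normally distributed, which was not checked here. Both flags rest largely on the same counts, since RNU6-1277P made up 98.5% of the U6 counts of library C.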

How the results depend on the processing

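The number of rows called out of 76 depended strongly on the scaling and the tool, and the cause was not tested. With library totals it was 5 (2D supermere against sEV), 14 (3D exomere against sEV), 18 (3D against 2D exomere), 27 (FPLC against UC exomere), 73 (FPLC supermere against exomere) and 3 (gradient 9_10). With RLE factors it was 4, 0 and 0 against sEV for 2D supermeres, 3D exomeres and 3D supermeres, 3 for FPLC supermere against exomere, 3 for gradient 9_10 and 48 for gradient 12. With snRNA counts as library size it was 1 (2D exomere against sEV), 3 and 0 (3D exomere and supermere against sEV), 24 (FPLC against UC exomere), 1 (9_10) and 13 (12; 2 higher and 11 lower).

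Without a filter on low counts, 14, 12 and 5 rows were called against sEV (2D supermere, 3D exomere, 3D supermere), 0 in FPLC against UC exomere, 0 in FPLC supermere against exomere and 1 in 9_10. DESeq2 called 1 (2D exomere against sEV), 24 (2D supermere against exomere), 46 and 56 (3D exomere and supermere against sEV), 56 and 7 (3D against 2D sEV and exomere), 29 and 43 (both FPLC exomere comparisons) and 29 (gradient 12). With the 2 groups alone it was 17, 20, 71, 27 and 1 (2D exomere against sEV, 2D supermere against exomere, 3D against 2D sEV, FPLC against UC exomere, 9_10). With the near-empty library kept, 24 were called in FPLC against UC exomere.

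Leaving out 1 library gave 12 to 26 rows (2D supermere against sEV), 9 to 26 (3D exomere), 0 to 28 (3D supermere), 2 to 15 (FPLC against UC exomere), 0 to 27 (FPLC supermere against exomere), 1 to 13 (9_10), 3 to 4 (12) and 0 elsewhere. The replicate block gave 30, 27, 29, 15, 25, 13 and 4 rows in these comparisons in this order, and 0 elsewhere. It took the call from RNU6-657P in FPLC supermere against exomere (-3.80). RNU6-1 reversed to -1.57 (3D against 2D sEV) and -3.38 (gradient 12) with snRNA counts as library size, and in 3D against 2D supermeres to -1.50 with library totals and -0.36 without 3D supermere library C (1.33 without library B). Over the named copies, 372 alternative values kept their direction and side of the threshold, 80 lost the call, 8 gained it and 4 reversed.

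With a minimum of 1000 summed counts the U6 level was 33.7 CPM in 2D supermeres, 13.8 in 3D supermeres and 75.2 in gradient 12, and the share was 3.67% in 2D sEV, 0.0609% in 3D exomeres and 0.118% in gradient 12. In 3D supermeres it was 27.4 CPM with a minimum of 100 and 42.6 with all U6 rows, which gave shares of 4.56% in 2D sEV and 0.141% in 3D exomeres. With the front-run boundary at position 60, chosen after seeing the data, the front-run percentage was 7.33, 11.5 and 69.98 (2D sEV, exomere, supermere), 12.8, 53.5 and 46.9 (3D), 13.5 and 19.8 (FPLC exomere, supermere), 36.0 (6_7) and 77.1 (12). In gradient 9_10, 3 of 4 libraries had under 10 counts of front-run and back-run rows, so their order was not detectable at this depth.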
